A study of Mus musculus with 20 samples.

Results

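The TRIM genes of a mouse microglial cell line are described here, in a line labelled RGS10 knockout and in the wild-type line, each with and without interferon gamma (IFNγ). Members were all protein-coding genes of the counts table whose mouse symbol is Trim followed by a digit, 68 of 56941 gene IDs. No read fell on 7 of the 68 in any library, and 43 passed the filter on low counts that was set for the whole table. Of those 43, 41 averaged at least 1 CPM (reads scaled to a common library size) over the 20 libraries and are called well-read. Trim17 and Trim66 passed the filter below that level, and the 25 members that did not pass were not tested.

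TRIM proteins are named for a tripartite motif, a RING finger, B-box zinc fingers and a coiled coil, and most act as E3 ubiquitin ligases: they hold a ubiquitin-loaded E2 enzyme close to a target that their C-terminal domain selects. The C-terminal domain is most often a SPRY domain, while other members carry a PHD finger with a bromodomain that reads chromatin, NHL repeats, or a domain that binds microtubules. In macrophages and related cells several members are induced by interferons, restrict retroviruses or tune signalling from the RNA sensor RIG-I, the DNA sensor cGAS and NF-κB.

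RNA came from BV-2 cells labelled RGS10 knockout (KO) and from wild-type (WT) BV-2 cells, a microglial line of the mouse that was immortalized for culture. Each line received IFNγ at 10 ng/mL or medium alone (vehicle) for 48 h, which gave KO IFNγ, WT IFNγ, KO vehicle and WT vehicle groups of 5 libraries each, 20 in all. The labels number the 5 as biological replicates, with replicates 1, 2 and 3 in batch 1, replicate 4 in batch 2 and replicate 5 in batch 3, and do not say whether the knockout is 1 clone or how it was made. RGS10 speeds up GTP hydrolysis by G protein alpha subunits, and the series title ties it to BV-2 migration.

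Total counts ran from 15866749 to 29157740 per library. Rgs10 was still read in the KO line. Its mean was 28.2 CPM in KO vehicle libraries and 63.0 CPM in WT vehicle libraries (log2 change −1.17 ± 0.17, edgeR adjusted p = 3.2e-05, exact permutation p = 0.0079, two-sided). Under IFNγ it was 24.4 CPM in KO and 29.6 CPM in WT libraries, where the exact permutation p was 0.37. The microglia and macrophage markers were all above 1 CPM (10 of 10), with summed levels of 3730 to 5120 CPM in KO IFNγ, 4170 to 8700 CPM in WT IFNγ, 2820 to 3560 CPM in KO vehicle and 3300 to 3800 CPM in WT vehicle libraries. Of the neuron markers, 2 of 7 exceeded 1 CPM (Map2 and Tubb3), with sums of 1.1 to 2.99 CPM in KO IFNγ, 7.24 to 27.4 CPM in WT IFNγ, 0.323 to 1.8 CPM in KO vehicle and 5.6 to 8.86 CPM in WT vehicle libraries, and Gad1 had no read. Of the fibroblast and endothelium markers 1 of 6 exceeded 1 CPM (Pecam1), with sums of 2.04 to 11.3 CPM in KO IFNγ, against 0.243 to 0.974 CPM in KO vehicle libraries, and 2.67 to 17 CPM in WT IFNγ, against 1.15 to 1.83 CPM in WT vehicle libraries. Of the oligodendrocyte markers 1 of 5 did (Mbp, sums up to 6.39 CPM, Mobp and Mog without a read), and of 5 astrocyte markers none did (Aqp4 without a read). The part of such markers in the results was not tested. The IFNγ libraries of batches 2 and 3 stood apart. Their TMM scaling factors were 0.892 and 0.880 in KO and 0.635 and 0.764 in WT, against 1.01 to 1.12 in the other 16 libraries. Malat1, a nuclear RNA, had 1446 and 1004 CPM of plain totals in those KO libraries and 1514 and 955 CPM in those WT libraries. In batch 1 it had 56.0 to 62.7 CPM in KO IFNγ and 355 to 386 CPM in WT IFNγ libraries. Counts of calls are therefore also given for batch 1 alone, and the part of library quality in the results was not tested. The libraries of a group lay closer together within batch 1 than between batches. A chi-square per degree of freedom on the counts of 2 libraries was 3.54 to 13.3 within batch 1. It was 14.1 to 356 for libraries of different batches. Calls in batch 1 alone thus measure only the narrow spread within 1 batch.

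Per kilobase of exon, Trim28 was read most of the family (mean of all 20 libraries 82.5 CPM per kb), followed by Trim25 (55.6), Trim35 (50.9), Trim30a (31.9) and Trim8 (31.3), all in CPM per kb. TRIM28 is the corepressor that KRAB zinc finger proteins recruit to silence retroelements, and TRIM25 is the ligase that activates RIG-I. Trim27 (19.9), Trim41 (15.6), Trim44 (15.4), Trim59 (14.3) and Trim32 (12.6) came next in CPM per kb. At the other end stood Trim5 (0.470), Trim62 (0.390), Trim30b (0.302) and Trim7 (0.256), again in CPM per kb. Of the 41 well-read members, 32 had 10 or more reads in every library and 9 did not: Trim5, Trim7, Trim24, Trim29, Trim30b, Trim30c, Trim62, Trim68 and Trim69. Of these 9, Trim68 (at most 0.468 CPM in any WT library) and Trim69 (at most 0.403 CPM in any WT vehicle library) passed the filter through the groups in which they were higher. Trim24 and Trim29 averaged above 1 CPM in the line in which they were lower as well.

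With IFNγ, 25 of the 41 well-read members changed in the KO line, 15 upward and 10 downward, at an edgeR adjusted p under 0.05. Among all 13755 genes tested in the KO line, 43.2% were called, 21.4% higher and 21.8% lower, while the well-read members' shares were 61.0%, 36.6% and 24.4%. In the WT line 26 of 41 changed, 17 upward and 9 downward. There the background was 58.9%, with 29.0% higher and 29.9% lower, and the members' shares were 63.4%, 41.5% and 22.0%, so the members' total share in WT lay near that of all genes. The median log2 change of the 41 was 0.17 in KO and 0.39 in WT cells, beside −0.017 and 0.012 over all genes tested. In both lines 12 members rose and 8 fell, and none rose in one line and fell in the other. The share of all genes called in both lines was not counted, so these joint counts stand without a background. When plain totals replaced TMM, the median over all genes moved to −0.16 in KO and −0.21 in WT cells. The members' calls then became 11 upward and 10 downward in KO (background 39.9%, 15.4% higher and 24.6% lower) and 13 upward and 9 downward in WT cells (background 56.0%, 20.5% higher and 35.4% lower). In batch 1 alone, which holds none of the libraries that stood apart, 13 rose and 10 fell in KO (background 56.6%, 28.1% higher and 28.4% lower) and 24 rose and 9 fell in WT cells (background 74.0%, 37.4% higher and 36.7% lower). There the members' total share in KO lay near that of all genes.

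**Figure D1:**
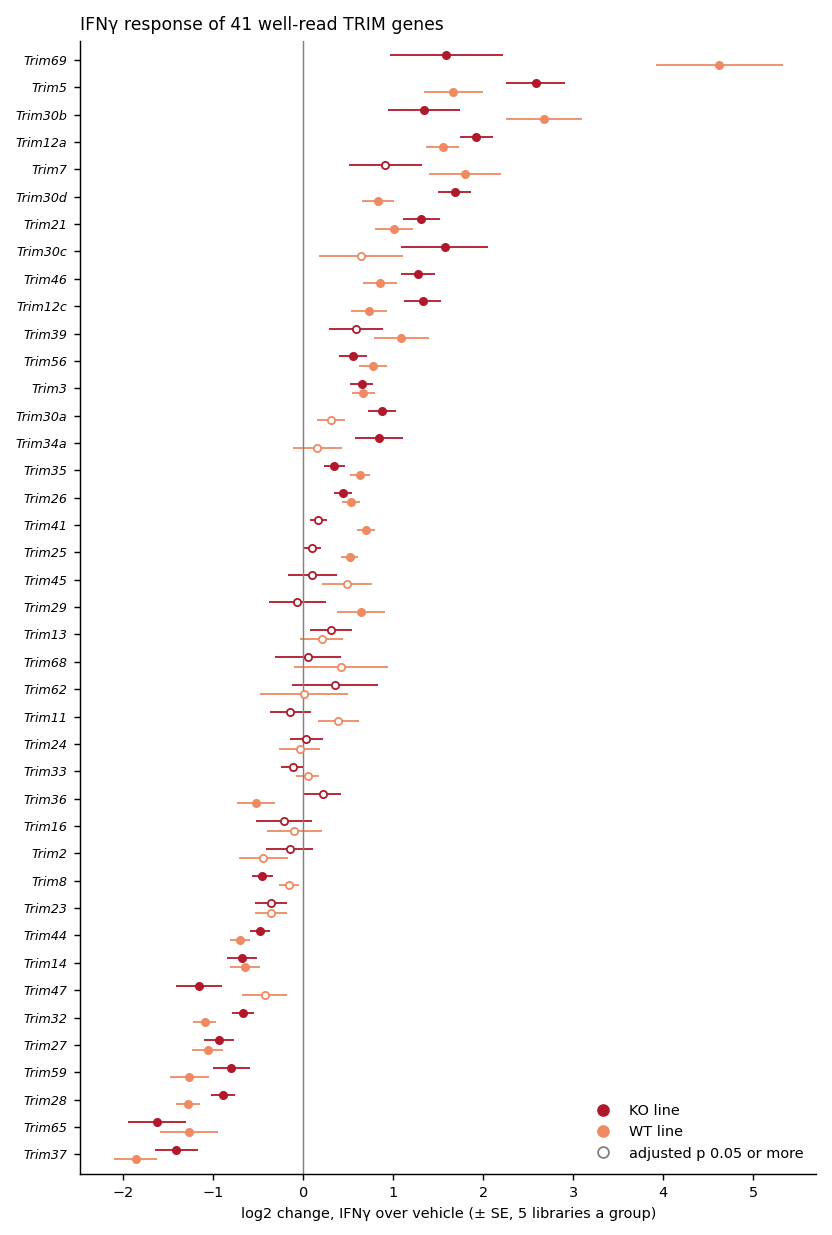
Log2 change with IFNγ over vehicle (x axis, points with SE, 5 libraries a group) of the 41 well-read TRIM genes (rows, ordered by the mean of both lines), KO in dark red above WT in orange, filled where called. Trim69 (1.59 in KO, 4.62 in WT), Trim5, Trim30b and Trim12a stand at the top, and Trim37 (−1.41 in KO, −1.86 in WT), Trim65 and Trim28 at the bottom.

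The mouse relatives of human TRIM5 and TRIM22 sit together on chromosome 7. Human and primate TRIM5 proteins bind the capsid of incoming retroviruses. The list held 10 genes, of which 8 were tested, and Trim6 and Trim34b had too few reads. All 8 tested rose in the KO line and 5 of 8 rose in the WT line, while none fell in either line, beside 21.4% of all genes higher in KO and 29.0% in WT cells. The medians were 1.46 in KO and 0.78 in WT cells (log2). In batch 2 the WT change was negative for Trim12c (−0.31), Trim30c (−0.47) and Trim34a (−1.59). These genes share sequence, so reads could be split or lost between them: 59.7% of the 50-base words of Trim34a also occur in other genes (most in Trim34b), 36.6% of those of Trim5, 33.7% of Trim12c and 10.5% of Trim12a.

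Because all 8 tested relatives rose in KO cells, promoters are shown around the interferon-stimulated response element (ISRE), the DNA word bound by interferon regulatory factors. The word searched was GAAANNGAAA, with its reverse complement TTTCNNTTTC. The windows ran from 250 bases before to 50 bases after each gene start, as RefSeq gives them on GRCm38.p6. Well-read members with a window numbered 31 of 41. The ISRE word occurred in 6 of the 8 relatives (75.0%) and in 9 of the 31 (29.0%), beside 3.99% of 27025 genes. The other 3 were Trim21, Trim26 and Trim2. Among the relatives Trim30b and Trim30c lacked the word, and Trim30b rose in both lines. Trim30a and Trim34a had the word and were not called in WT cells. Below, 30 bases around the word are given in the direction of each gene, with the word in capitals. They lie at chr7:104288136-104288165 (Trim5), chr7:104315466-104315495 (Trim12a), chr7:104353359-104353388 (Trim12c), chr7:104465210-104465239 (Trim30a), chr7:104507871-104507900 (Trim30d) and chr7:102565450-102565479 (Trim21), all on the minus strand. The others lie at chr7:104244457-104244486 (Trim34a) and chr17:36836976-36837005 (Trim26), both on the plus strand.
Trim5: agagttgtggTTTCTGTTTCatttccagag
Trim12a: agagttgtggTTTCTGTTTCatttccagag
Trim12c: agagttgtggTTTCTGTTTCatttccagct
Trim30a: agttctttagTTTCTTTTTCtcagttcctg
Trim30d: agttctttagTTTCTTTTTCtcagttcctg
Trim34a: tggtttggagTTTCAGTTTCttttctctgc
Trim21: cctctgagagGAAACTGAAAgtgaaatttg
Trim26: ccgcttccgaTTTCACTTTCcttttctcgg
The printed bases of Trim5 and Trim12a are identical, as are those of Trim30a and Trim30d, so the relatives do not count independently in that share. In Trim21 and Trim26 a second, overlapping ISRE word follows the one in capitals. A word in a window is a description of these letters and not evidence of binding.

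Values per library are given in CPM on TMM-scaled totals in the order of replicates 1 to 5, so that the first 3 are batch 1, the fourth is batch 2 and the fifth is batch 3. Trim5 had 4.99, 4.75, 4.49, 1.70 and 1.40 CPM in KO IFNγ libraries, against 0.469, 0.803, 0.689, 0.272 and 0.526 CPM in KO vehicle libraries. In WT cells it had 2.43, 3.83, 1.74, 0.936 and 2.23 CPM with IFNγ, against 0.700, 0.737, 0.918, 0.403 and 0.673 CPM with vehicle. Every IFNγ library of either line lay above every vehicle library of that line, and the lowest IFNγ library was that of batch 3 in KO and of batch 2 in WT cells. Trim5 rose by 2.58 ± 0.33 on the log2 scale in KO cells (6.0-fold, adjusted p = 5e-06) and by 1.67 ± 0.33 in WT cells (3.17-fold, adjusted p = 0.00022).

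Trim12a, a mouse paralogue of Trim5, had 30.2, 32.8, 32.2, 37.6 and 28.3 CPM in KO IFNγ libraries, against 10.2, 10.0, 10.9, 6.77 and 6.31 CPM in KO vehicle libraries. In WT cells the values were 33.7, 39.4, 33.2, 13.4 and 22.1 CPM with IFNγ, against 11.6, 10.4, 10.9, 6.68 and 7.79 CPM with vehicle. The groups of each line did not overlap, and within every batch the IFNγ library was higher. The log2 change was 1.92 ± 0.18 in KO (3.80-fold, adjusted p = 1.4e-07) and 1.55 ± 0.18 in WT cells (2.93-fold, adjusted p = 7.2e-07). Both calls held in all 31 alternative settings.

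For Trim12c, KO IFNγ libraries had 50.5, 52.0, 59.1, 18.1 and 45.7 CPM, against 20.4, 19.6, 21.9, 12.2 and 12.0 CPM in KO vehicle libraries. WT IFNγ libraries had 50.9, 46.1, 46.3, 13.6 and 49.5 CPM, against 31.2, 30.6, 27.4, 16.9 and 14.1 CPM in WT vehicle libraries. The batch 2 IFNγ library was the lowest of its group in both lines and lay within the vehicle range in KO and below it in WT cells. Trim12c rose by 1.33 ± 0.20 in KO (adjusted p = 3.7e-05) and by 0.73 ± 0.20 in WT cells (adjusted p = 0.0043) on the log2 scale. The WT difference was 0.69, −0.31 and 1.80 in batches 1, 2 and 3, and its call was lost with plain library totals (log2 0.53, adjusted p = 0.069), with no batch term and in batches 2 and 3 alone.

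Trim30a, which in mouse macrophages limits NF-κB signalling, was the relative read most per length. It had 196, 198, 212, 111 and 176 CPM in KO IFNγ libraries, against 117, 117, 109.9, 69.8 and 70.6 CPM in KO vehicle libraries. In WT cells it had 141, 140.3, 121, 92.1 and 186 CPM with IFNγ, against 133, 148, 138, 65.2 and 82.3 CPM with vehicle. In KO cells the batch 2 IFNγ library lay below the highest vehicle values, and in WT cells the groups overlapped widely. Trim30a rose in KO cells (log2 0.88 ± 0.15, adjusted p = 0.00014), and its WT change of 0.31 ± 0.15 had an adjusted p of 0.084.

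Trim30b had 2.62, 3.13, 2.74, 0.397 and 3.84 CPM in KO IFNγ libraries, against 1.26, 1.37, 1.21, 0.194 and 0.728 CPM in KO vehicle libraries. Its WT values were 4.04, 3.21, 3.41, 4.21 and 9.16 CPM with IFNγ, against 0.915, 0.876, 0.597, 0.403 and 1.18 CPM with vehicle. The WT groups did not overlap, whereas in KO cells the batch 2 IFNγ library lay within the vehicle range. Trim30b rose by 1.34 ± 0.40 on the log2 scale in KO (2.54-fold, adjusted p = 0.01) and by 2.67 ± 0.42 in WT cells (6.37-fold, adjusted p = 2.1e-05). The KO call was lost without batch 3 and in batches 2 and 3 alone. The difference between the lines' responses, −1.33 ± 0.57, had an adjusted p of 0.18.

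Trim30d stood at 50.8, 51.5, 52.0, 21.2 and 49.1 CPM in KO IFNγ libraries, against 16.0, 16.5, 16.9, 8.55 and 10.4 CPM in KO vehicle libraries. With IFNγ, WT cells had 26.4, 27.8, 25.6, 11.9 and 40.9 CPM, against 19.2, 20.9, 16.3, 7.66 and 10.7 CPM with vehicle. KO groups did not overlap, and in WT cells the batch 2 IFNγ library was below the batch 1 vehicle libraries. The log2 change was 1.68 ± 0.18 in KO (3.21-fold, adjusted p = 7e-07) and 0.83 ± 0.18 in WT cells (1.78-fold, adjusted p = 0.00062), and both calls held in all 31 settings.

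Trim30c and Trim34a, like Trim30a, passed the test in KO cells and did not in WT cells. Trim30c had 2.51, 2.64, 3.42, 0 and 2.21 CPM in KO IFNγ libraries, against 1.08, 0.643, 1.03, 0.156 and 0.445 CPM in KO vehicle libraries. WT cells had 3.96, 4.00, 3.68, 1.01 and 4.70 CPM with IFNγ, against 2.48, 2.72, 1.88, 1.44 and 1.40 CPM with vehicle. No read was found in the KO IFNγ library of batch 2, and the other KO IFNγ libraries were above all KO vehicle libraries. Its KO log2 change was 1.57 ± 0.48 (adjusted p = 0.013), lost with no batch term, without batch 3 and in batches 2 and 3 alone, and its WT change was 0.64 ± 0.47 (adjusted p = 0.25).

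Trim34a had 6.54, 7.25, 7.11, 2.95 and 5.64 CPM in KO IFNγ libraries, against 3.39, 3.65, 3.53, 2.53 and 2.67 CPM in KO vehicle libraries. In WT cells the levels were 7.19, 5.73, 6.31, 1.09 and 4.52 CPM with IFNγ, against 3.23, 3.87, 5.19, 3.46 and 4.65 CPM with vehicle. The batch 2 IFNγ library was the lowest of its group in both lines. Trim34a rose in KO cells (log2 0.85 ± 0.27, adjusted p = 0.016), a call lost in 4 of 31 settings, and in WT cells it changed by 0.16 ± 0.27 (adjusted p = 0.63). Besides its shared words, 23.5% of its exon bases overlap an antisense gene.

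The tests of the difference between the lines called Trim30d among the 8, and not Trim30a (log2 0.56 ± 0.21, adjusted p = 0.12), Trim30c (0.93 ± 0.66, adjusted p = 0.45) or Trim34a (0.69 ± 0.38, adjusted p = 0.31). Between the lines under vehicle, Trim30c was lower in KO cells (log2 −1.78 ± 0.49, adjusted p = 0.0099), and the groups did not overlap. Under IFNγ Trim30d was higher in KO cells (log2 0.75 ± 0.18, adjusted p = 0.0022). Trim30b was lower there (−1.09 ± 0.39, adjusted p = 0.032), but its call was lost without any 1 of 5 libraries, with values from −1.29 to −0.68 over all 20 omissions and adjusted p from 0.021 to 0.11.

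**Figure D2:**
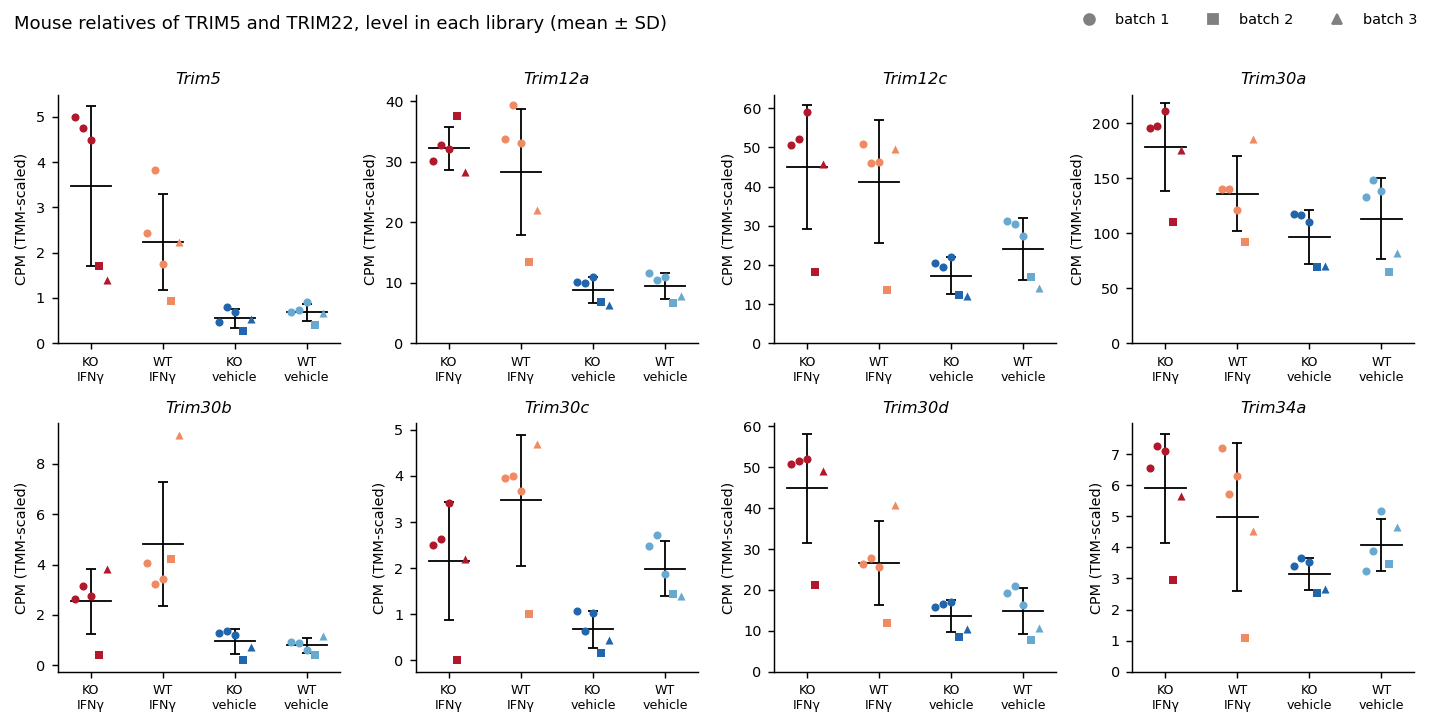
Level (y axis, CPM on TMM-scaled totals) of the 8 tested relatives of TRIM5 and TRIM22 in each library, by group (x axis), with symbols for batches and bars for mean ± SD of 5 libraries. The square of batch 2 is the lowest point of KO IFNγ libraries for Trim12c (18.1 CPM), Trim30a (111 CPM), Trim30d (21.2 CPM) and Trim34a (2.95 CPM).

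Outside that group, Trim69 and Trim21 rose in both lines and Trim7 rose in WT cells. Trim69, whose human counterpart binds microtubules, had 0.964, 0.387, 0.685, 2.95 and 3.32 CPM in KO IFNγ libraries, against 0.830, 0.241, 0.388, 0.156 and 0.243 CPM in KO vehicle libraries. WT cells had 1.79, 1.57, 2.21, 13.0 and 5.38 CPM with IFNγ, against 0.215, 0, 0.0918, 0.403 and 0.112 CPM with vehicle, where 15 reads fell on it in all 5 libraries together. The WT groups did not overlap, the KO groups did, and in both lines the IFNγ libraries of batches 2 and 3 were the highest. In KO cells Trim69 rose by 1.59 ± 0.63 on the log2 scale (3.00-fold, adjusted p = 0.047), a call that ended without any 1 of 15 libraries (values 1.10 to 2.35, adjusted p 0.0057 to 0.17). This KO call was also absent in batch 1 alone (adjusted p = 0.44) and with plain library totals (log2 1.49, adjusted p = 0.055). Trim69 rose by 4.62 ± 0.71 in WT cells (24.6-fold, adjusted p = 1.5e-05), in all 31 settings. The difference of the 2 responses was −3.04 ± 0.93 with an adjusted p of 0.058.

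Trim7, an SPRY ligase named for its binding of glycogenin, had 0.895, 0.950, 1.33, 2.55 and 4.36 CPM in KO IFNγ libraries, against 1.08, 0.321, 1.03, 1.44 and 0.728 CPM in KO vehicle libraries. The WT values were 3.02, 1.64, 1.63, 7.72 and 4.58 CPM with IFNγ, against 0.431, 0.461, 0.688, 2.82 and 1.23 CPM with vehicle. In both lines the groups overlapped and the highest values were those of batches 2 and 3. Its KO change was 0.91 ± 0.41 on the log2 scale (adjusted p = 0.074), and in WT cells it rose by 1.80 ± 0.40 (adjusted p = 0.00075).

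Trim21 encodes the cytosolic antibody receptor that sends antibody-coated viruses to the proteasome. It averaged 26.8 ± 12.0 CPM in KO IFNγ libraries and 9.93 ± 2.49 CPM in KO vehicle libraries (mean ± SD, n = 5 each). In WT cells it averaged 21.9 ± 7.83 CPM with IFNγ and 10.8 ± 4.64 CPM with vehicle. It rose by 1.31 ± 0.21 in KO (adjusted p = 6.1e-05) and 1.01 ± 0.21 in WT cells (adjusted p = 0.00041) on the log2 scale, least in batch 2 (0.25 in KO, 0.31 in WT).

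Rises in both lines were also seen for Trim46 (log2 1.27 ± 0.19 in KO, 0.86 ± 0.19 in WT), a microtubule-binding member known from axons, and for Trim3 (0.65 ± 0.12 in KO, 0.67 ± 0.12 in WT), an NHL-repeat member. Trim56, which acts in cGAS and STING signalling, rose by 0.55 ± 0.15 in KO and 0.78 ± 0.15 in WT cells, and its KO change was 0.092, 1.26 and 1.10 in batches 1, 2 and 3. Trim26 (0.44 ± 0.10 in KO, 0.53 ± 0.10 in WT) and Trim35 (0.35 ± 0.11 in KO, 0.63 ± 0.11 in WT) rose by less than the others in KO cells. The KO call of Trim35 ended without any 1 of 4 libraries (0.27 to 0.45, adjusted p 0.0015 to 0.075), and its KO change was −0.19 in batch 2. With plain library totals the calls of Trim26 in both lines and of Trim35 in KO cells were lost.

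Trim25, Trim29, Trim39, Trim41 and Trim7 passed the test in WT cells and not in KO cells. Trim25 had a change of 0.10 ± 0.094 on the log2 scale in KO (adjusted p = 0.39) and rose by 0.52 ± 0.094 in WT cells (adjusted p = 0.0001), but the difference between the lines had an adjusted p of 0.067. The WT call of Trim25 was lost with plain library totals (log2 0.30, adjusted p = 0.086). For Trim39 the KO change was 0.59 ± 0.30 (adjusted p = 0.12), the WT change 1.09 ± 0.31 (adjusted p = 0.0047) and the adjusted p of the difference 0.55. For Trim29 the WT call (log2 0.64 ± 0.27, adjusted p = 0.047) ended without any 1 of 14 libraries (0.57 to 0.70, adjusted p 0.016 to 0.11).

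The chromatin regulator Trim28 fell with IFNγ in both lines. It had 337, 356, 354, 176 and 177 CPM in KO IFNγ libraries, against 527, 535, 522, 398 and 463 CPM in KO vehicle libraries. WT IFNγ libraries had 222, 236, 231, 95.4 and 113 CPM, against 512, 508, 506, 302 and 288 CPM in WT vehicle libraries. Within either line no IFNγ library reached a vehicle library, and batches 2 and 3 were the lowest in both treatments. Trim28 fell by 0.89 ± 0.13 in KO (1.85-fold, adjusted p = 2.7e-05) and by 1.28 ± 0.13 in WT cells (2.43-fold, adjusted p = 1.5e-07) on the log2 scale. Among the PHD and bromodomain members, Trim66, which is not well-read, was also called lower in both lines (log2 −2.39 ± 0.75 in KO, −2.28 ± 0.86 in WT). Its mean was 0.541 CPM, with 26 and 15 reads in KO and WT IFNγ libraries, against 148 and 61 in vehicle libraries. Trim66 passed the filter mainly through its vehicle libraries, which favours a fall, so these calls are no separate support. The WT call of Trim66 ended in 9 of 31 settings. Trim24 and Trim33 were not called in either line.

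Trim37, a MATH-domain ligase of peroxisomes and centrosomes, had 63.2, 63.3, 58.9, 19.0 and 28.2 CPM in KO IFNγ libraries, against 126, 128, 115, 104 and 119.7 CPM in KO vehicle libraries. It had 31.5, 30.5, 28.5, 51.0 and 25.6 CPM in WT cells with IFNγ, against 147, 142, 124, 111 and 94.4 CPM with vehicle. The groups of each line were apart. In KO cells the IFNγ libraries of batches 2 and 3 were the lowest, while in WT cells batch 2 was the highest IFNγ library. The fall was 1.41 ± 0.24 in KO (2.66-fold, adjusted p = 0.00012) and 1.86 ± 0.24 in WT cells (3.63-fold, adjusted p = 2.5e-06) on the log2 scale.

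Trim27, an SPRY ligase of the nucleus and endosomes, had 114, 109.5, 112, 39.7 and 69.6 CPM in KO IFNγ libraries, against 163, 169.6, 154, 139 and 170.3 CPM in KO vehicle libraries. In WT cells it stood at 79.8, 77.0, 80.5, 33.3 and 46.9 CPM with IFNγ, against 139, 131, 139.7, 116 and 106 CPM with vehicle. Groups did not overlap in either line. Trim27 fell by 0.94 ± 0.17 in KO (adjusted p = 0.00022) and by 1.06 ± 0.17 in WT cells (adjusted p = 2.7e-05), and the KO change in batches 1, 2 and 3 was −0.54, −1.81 and −1.29.

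Trim59, a membrane-anchored ligase, had 42.8, 38.9, 42.9, 32.4 and 23.3 CPM in KO IFNγ libraries, against 66.8, 70.9, 69.0, 47.7 and 53.0 CPM in KO vehicle libraries. In WT cells it had 41.5, 41.5, 42.5, 9.75 and 10.7 CPM with IFNγ, against 80.7, 86.0, 73.1, 45.4 and 38.3 CPM with vehicle. KO groups were apart, and in WT cells the batch 1 IFNγ libraries lay above the vehicle library of batch 3. The fall was 0.80 ± 0.21 in KO (adjusted p = 0.0048) and 1.26 ± 0.21 in WT cells (adjusted p = 4.7e-05) on the log2 scale.

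Trim65, the ligase of the RNA sensor MDA5, had 10.2, 10.0, 7.49, 0.681 and 2.5 CPM in KO IFNγ libraries, against 21.0, 17.4, 19.5, 6.77 and 12.1 CPM in KO vehicle libraries. The WT libraries had 9.41, 8.91, 11.1, 0.780 and 2.54 CPM with IFNγ, against 17.1, 16.8, 19.6, 8.12 and 4.82 CPM with vehicle. The IFNγ libraries of batch 2 held under 1 CPM, and across batches the groups overlapped in both lines. Trim65 fell by 1.62 ± 0.32 in KO (adjusted p = 0.0005) and 1.27 ± 0.33 in WT cells (adjusted p = 0.0024), and neither call held with no batch term.

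Trim47, its neighbour on chromosome 11, shares 8.23% of its exon bases with Trim65. It had 26.7, 27.9, 25.3, 6.81 and 7.85 CPM in KO IFNγ libraries, against 36.5, 39.2, 40.0, 29.4 and 32.8 CPM in KO vehicle libraries. WT libraries had 26.8, 27.8, 29.6, 5.61 and 8.11 CPM with IFNγ, against 23.5, 28.3, 30.0, 16.6 and 16.9 CPM with vehicle. KO groups did not overlap. In WT cells the IFNγ and vehicle libraries of batch 1 overlapped, and batches 2 and 3 were lower with IFNγ. It fell by 1.16 ± 0.26 in KO cells (adjusted p = 0.0011), and its WT change was −0.43 ± 0.25 (adjusted p = 0.15).

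The other falls in both lines were those of Trim32 (log2 −0.66 ± 0.12 in KO, −1.10 ± 0.13 in WT), Trim44 (−0.48 ± 0.11 in KO, −0.70 ± 0.11 in WT) and Trim14 (−0.68 ± 0.17 in KO, −0.65 ± 0.17 in WT). TRIM14 is an adaptor of mitochondrial antiviral signalling, and 38.0% of the exon bases of Trim14 overlap genes on the other strand, Nans among them. Trim8, a ligase in NF-κB signalling, had 93.0, 90.8, 89.6, 68.5 and 97.4 CPM in KO IFNγ libraries, against 117, 122, 122, 103 and 135 CPM in KO vehicle libraries. Its WT libraries had 135, 133, 138, 80.2 and 126 CPM with IFNγ, against 125, 122, 138, 145 and 143 CPM with vehicle. KO groups were apart, and the batch 2 IFNγ library was the lowest of all in both lines. It fell in KO cells (log2 −0.45 ± 0.11, adjusted p = 0.0032), with a WT change of −0.16 ± 0.11 (adjusted p = 0.23). Of the list of 13 tested antiviral and NF-κB signalling TRIM genes, 4 rose and 6 fell in KO cells (background 43.2%), and 4 rose and 5 fell in WT cells (background 58.9%).

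**Figure D3:**
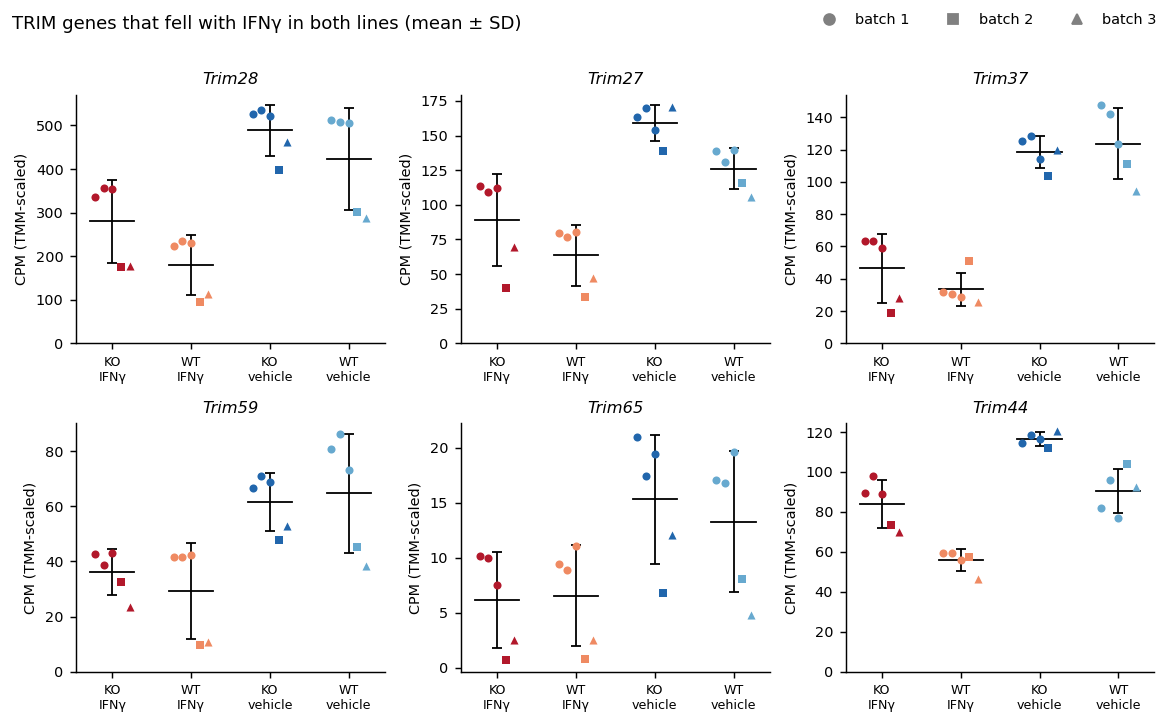
Level (y axis, CPM on TMM-scaled totals) in each library of 6 TRIM genes that fell with IFNγ in both lines, by group (x axis), with symbols for batches and bars for mean ± SD of 5 libraries. Trim28 lies between 176 and 356 CPM in KO IFNγ libraries and between 398 and 535 CPM in KO vehicle libraries.

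Between the lines, 12 of the 41 well-read members differed under vehicle, 9 higher and 3 lower in KO cells. Of all genes tested 27.3% did, 12.5% higher and 14.8% lower in KO, and the members' shares were 29.3%, 22.0% and 7.32%, so the total share was near the background. Under IFNγ 15 of 41 differed, 10 higher and 5 lower in KO cells, a share of 36.6% with 24.4% higher and 12.2% lower. The background there was 39.0%, with 20% higher and 19.0% lower. The medians were 0.20 under vehicle and 0.23 under IFNγ (log2), beside 0.025 and 0.0061 over all genes. Under both treatments Trim14, Trim24, Trim32, Trim44 and Trim68 were higher and Trim29 and Trim62 lower in KO cells. With plain library totals 7 were higher and 3 lower under vehicle (background 22.9%, 11.5% higher and 11.4% lower). Under IFNγ 11 were then higher and 2 lower (background 35.3%, 22.0% higher and 13.3% lower), with the median of all genes at 0.13. In batch 1 alone 28 of 41 differed under vehicle (19 higher, 9 lower, background 58.4%, 28.4% higher and 30.0% lower) and 28 under IFNγ (17 higher, 11 lower, background 69.3%, 35.8% higher and 33.5% lower).

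Trim24 and Trim68 had the 2 largest positive differences. Trim24 (ENSMUSG00000029833) encodes a coregulator of nuclear receptors that reads histone H3 through its PHD finger and bromodomain. It had 13.3, 14.8, 15.2, 16.5 and 15.2 CPM in KO IFNγ libraries, against 1.02, 1.41, 1.59, 0.624 and 0.866 CPM in WT IFNγ libraries. Under vehicle it had 16.5, 17.4, 16.2, 13.0 and 10.9 CPM in KO libraries, against 1.13, 1.01, 1.06, 1.32 and 1.23 CPM in WT libraries. Every KO library was far above every WT library, and IFNγ moved neither line past the test. The difference was 3.74 ± 0.22 on the log2 scale under IFNγ (13.4-fold, adjusted p = 1.8e-10) and 3.67 ± 0.22 under vehicle (12.7-fold, adjusted p = 2.5e-10). The WT reads were few, 130 under IFNγ and 111 under vehicle over 5 libraries each.

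Trim68 (ENSMUSG00000073968), an SPRY ligase known as a coactivator of the androgen receptor, had 5.51, 4.29, 4.88, 4.20 and 2.5 CPM in KO IFNγ libraries, against 0.468, 0.360, 0.0775, 0.234 and 0.371 CPM in WT IFNγ libraries. Under vehicle the values were 4.01, 4.18, 3.45, 4.78 and 4.33 CPM in KO and 0, 0.230, 0.230, 0.346 and 0.336 CPM in WT libraries. The lines did not overlap. Trim68 was higher in KO cells by 3.79 ± 0.45 under IFNγ (13.8-fold, adjusted p = 2e-06) and 4.16 ± 0.47 under vehicle (17.9-fold, adjusted p = 1.1e-06) on the log2 scale. In WT cells only 33 and 22 reads fell on it over the 5 IFNγ and the 5 vehicle libraries. It passed the filter through its KO libraries, so a call in the other direction could hardly occur.

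Trim29 (ENSMUSG00000032013) went the other way. Its protein lacks a RING finger and in mouse airway macrophages lowers NF-κB signalling. It had 1.76, 1.02, 1.88, 0.454 and 2.21 CPM in KO IFNγ libraries, against 25.6, 20.9, 26.7, 17.5 and 26.1 CPM in WT IFNγ libraries. Under vehicle KO libraries had 1.37, 1.61, 1.81, 2.02 and 0.647 CPM, against 14.9, 12.9, 15.9, 14.5 and 16.1 CPM in WT libraries. No KO library came near a WT library. The log2 difference was −4.00 ± 0.31 under IFNγ (16.0-fold, adjusted p = 1.2e-08) and −3.30 ± 0.31 under vehicle (9.84-fold, adjusted p = 9.1e-08). These differences of Trim24, Trim68 and Trim29 held in all 31 settings under both treatments. For Trim68, whose direction the filter favoured, that is no separate support. With 1 KO line, differences of the knockout and differences between 2 cultured lines cannot be told apart.

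Trim62, an SPRY ligase that acts on CARD9, had 1.24, 1.44, 1.28, 1.02 and 0.291 CPM in KO IFNγ libraries, against 4.77, 4.10, 4.38, 0.624 and 1.86 CPM in WT IFNγ libraries. Under vehicle it had 0.325, 1.17, 0.991, 0.972 and 0.566 CPM in KO and 2.58, 2.12, 2.25, 2.88 and 4.32 CPM in WT libraries. Under vehicle the lines were apart, while under IFNγ the WT library of batch 2 lay within the KO range. Trim62 was lower in KO cells under IFNγ (log2 −1.53 ± 0.47, adjusted p = 0.013) and vehicle (−1.87 ± 0.48, adjusted p = 0.0055), but the IFNγ difference of batch 2 was 0.64.

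Trim32, an NHL-repeat ligase known from limb-girdle muscular dystrophy, had 44.1, 43.3, 46.4, 38.4 and 41.9 CPM in KO IFNγ libraries, against 19.2, 18.8, 19.5, 12.2 and 13.6 CPM in WT IFNγ libraries. Under vehicle it had 63.3, 70.0, 66.2, 65.1 and 74.0 CPM in KO and 34.0, 35.1, 31.6, 38.4 and 37.8 CPM in WT libraries. KO libraries were higher in every batch and under both treatments, without overlap. The difference was 1.36 ± 0.13 under IFNγ (2.57-fold, adjusted p = 8.5e-08) and 0.93 ± 0.12 under vehicle (1.91-fold, adjusted p = 8.2e-06) on the log2 scale.

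Trim14 had 13.7, 13.8, 11.5, 9.65 and 9.65 CPM in KO IFNγ libraries, against 8.47, 6.68, 5.96, 5.15 and 8.11 CPM in WT IFNγ libraries. Under vehicle it had 21.2, 20.8, 22.1, 17 and 12.7 CPM in KO and 9.42, 10.3, 12.6, 10.9 and 10.4 CPM in WT libraries. The lines were apart under both treatments, with the smallest gap in batch 3. Trim14 was higher in KO cells by 0.75 ± 0.17 under IFNγ (adjusted p = 0.0015) and 0.79 ± 0.17 under vehicle (adjusted p = 0.0013) on the log2 scale. Trim44, a member with a zinc finger like that of ubiquitin proteases, was higher by 0.59 ± 0.11 under IFNγ and 0.37 ± 0.11 under vehicle. The vehicle call of Trim44 ended without any 1 of 3 libraries (0.30 to 0.44, adjusted p 0.0083 to 0.060).

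Called under IFNγ and not under vehicle, Trim28 (log2 0.66 ± 0.13, adjusted p = 0.00052), Trim30d, Trim36, Trim13 and Trim27 were higher and Trim8, Trim25 and Trim30b lower in KO cells. Among these 8 the test of the difference of responses called Trim30d. The IFNγ calls of Trim28 and Trim30d were lost with no batch term (adjusted p = 0.093 and 0.085). They were also lost in batches 2 and 3 alone (adjusted p = 0.071 and 0.46). Trim36, a microtubule-associated ligase, had 8.74, 11.4, 10.7, 10.8 and 13.4 CPM in KO IFNγ libraries, against 4.38, 5.6, 7.01, 7.10 and 2.97 CPM in WT IFNγ libraries. Under vehicle it had 9.78, 11.5, 11.5, 8.32 and 7.16 CPM in KO and 8.83, 8.06, 7.07, 8.0 and 6.45 CPM in WT libraries. The lines were apart with IFNγ and overlapped with vehicle. The IFNγ difference was 1.06 ± 0.21 (adjusted p = 0.00051) and the vehicle difference 0.32 ± 0.21 (adjusted p = 0.26), and the difference between these had an adjusted p of 0.14. Trim36 fell with IFNγ in WT cells (log2 −0.52 ± 0.21, adjusted p = 0.039), a call that ended without any 1 of 7 libraries (−0.66 to −0.38, adjusted p 0.012 to 0.12).

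Trim13 (log2 0.67 ± 0.24) and Trim27 (0.48 ± 0.17) each lost their IFNγ call without any 1 of 5 libraries. For Trim13 the values ran from 0.31 to 0.81 (adjusted p 0.011 to 0.18), lowest without KO IFNγ replicate 4, and for Trim27 from 0.39 to 0.62 (adjusted p 0.0029 to 0.082). The log2 difference was −0.47 ± 0.11 for Trim8 (adjusted p = 0.0024) and −0.35 ± 0.094 for Trim25 (adjusted p = 0.006), and neither call held with plain library totals (log2 −0.37 and −0.23).

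Called under vehicle and not under IFNγ, Trim35 (log2 0.52 ± 0.11), Trim56 (0.59 ± 0.15), Trim41 (0.39 ± 0.10) and Trim47 (0.70 ± 0.25) were higher in KO cells, and among these 4 the test of the difference of responses called Trim41. All 4 vehicle calls were lost with no batch term (adjusted p = 0.067, 0.055, 0.24 and 0.37, in that order). They were also lost in batches 2 and 3 alone (adjusted p = 0.12, 0.3, 0.8 and 0.15). The Trim47 call ended without any 1 of 7 libraries (0.49 to 0.84, adjusted p 0.024 to 0.18) and with the replicate number as a block (log2 0.70, adjusted p = 0.064). That block also ended the WT IFNγ call of Trim29 (0.64, adjusted p = 0.061).

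**Figure D4:**
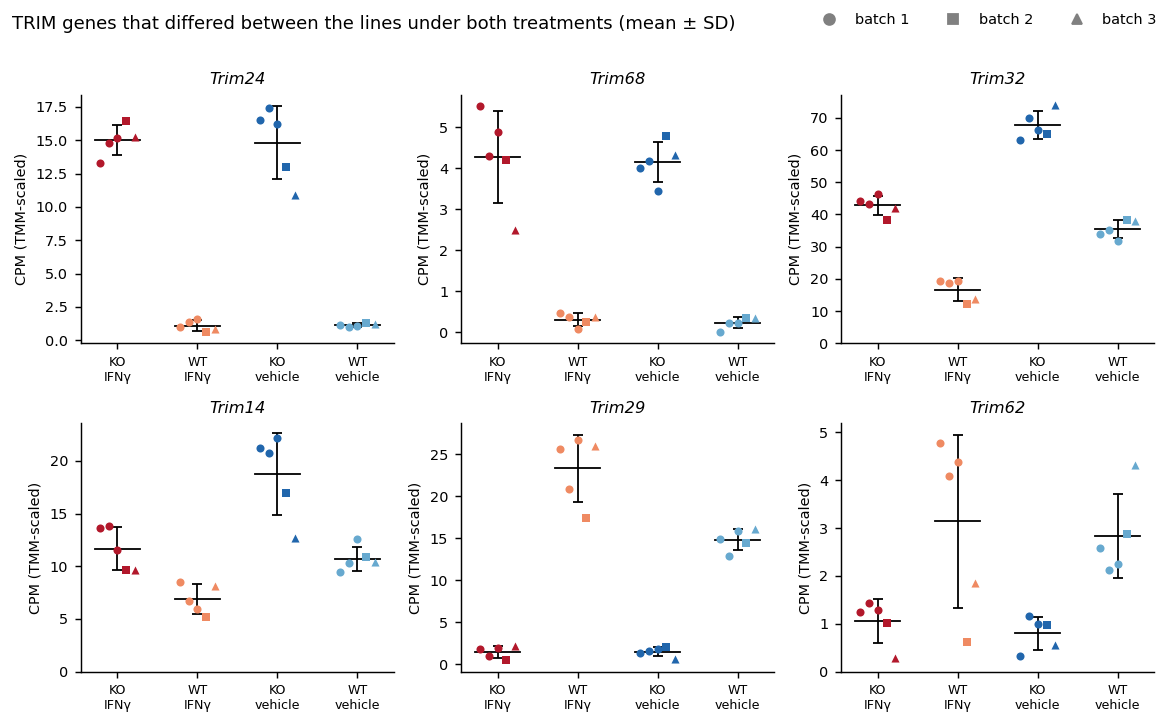
Level (y axis, CPM on TMM-scaled totals) in each library of 6 TRIM genes that differed between the lines under both treatments, by group (x axis), with symbols for batches and bars for mean ± SD of 5 libraries. Trim24 lies between 10.9 and 17.4 CPM in all KO libraries and at or below 1.59 CPM in all WT libraries, and Trim29 shows the opposite order.

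The response to IFNγ itself differed between the lines for 2 of the 41 members (4.88%), beside 6.5% of all genes tested (3.64% higher and 2.86% lower in KO), so the share was not above the background. In batch 1 alone it was 25 of 41 (12 higher, 13 lower in KO), beside 51.3% of all genes (29.7% higher and 21.6% lower). Those batch 1 calls rest on the narrow spread within 1 batch. With plain library totals 2 members were higher in KO and none lower (background 3.9%, 2.36% higher and 1.55% lower). Trim30d, given above, responded more in KO cells: the KO response minus the WT response was 0.85 ± 0.25 on the log2 scale (adjusted p = 0.049), and 1.13, 0.67 and 0.31 in batches 1, 2 and 3. The call ended without any 1 of 16 libraries, with values of 0.75 to 1.12 and adjusted p of 0.0024 to 0.098 over the 20 omissions. Trim41, an SPRY ligase, had 53.9, 53.6, 48.9, 69.3 and 71.5 CPM in KO IFNγ libraries, against 45.2, 48.9, 51.3, 57.5 and 58.8 CPM in KO vehicle libraries. In WT cells it had 53.1, 53.7, 53.0, 86.5 and 87.2 CPM with IFNγ, against 33.0, 31.4, 35.7, 51.3 and 53.7 CPM with vehicle. Within each batch the WT rise was the larger one, and batches 2 and 3 were above batch 1 in all 4 groups.

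The log2 change of Trim41 was 0.17 ± 0.10 in KO cells (adjusted p = 0.17), and in WT cells it rose by 0.70 ± 0.10 (adjusted p = 6.7e-06). The KO response minus the WT response was −0.53 ± 0.14 (adjusted p = 0.028) and −0.57, −0.48 and −0.42 in batches 1, 2 and 3. This call ended without any 1 of 7 libraries (−0.57 to −0.48, adjusted p 0.014 to 0.069) and with plain library totals (−0.42, adjusted p = 0.20). With the replicate number as a block neither call held (Trim30d 0.85, adjusted p = 0.088, and Trim41 −0.53, adjusted p = 0.063).

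Between batches, over all 4 groups, 23 of 41 members (56.1%) differed in an edgeR F-test, beside 46.7% of all genes. Within the IFNγ groups the batch 2 library was the lowest of the 5 for 25 of 41 members in KO (61.0%) and for 29 of 41 in WT cells (70.7%), beside 36.4% and 36.9% of all genes tested. Among the 8 relatives of TRIM5 and TRIM22 it was the lowest for 6 in KO IFNγ, 7 in WT IFNγ, 6 in KO vehicle and 5 in WT vehicle libraries. Under vehicle the batch 2 library was the lowest for 21 of 41 members in KO (51.2%) and 7 of 41 in WT cells (17.1%), beside 31.2% and 18.5% of all genes. The sign of the change was the same in all 3 batches for 23 of the 25 members called in KO and for 25 of the 26 called in WT cells with IFNγ. It was the same for all 12 members called between the lines under vehicle and for 14 of the 15 called under IFNγ, Trim62 being the other. Among all 41 members, called or not, it was the same for 26 in each line with IFNγ. Between the lines it was the same for 26 under vehicle and 24 under IFNγ. The calls came from these same libraries, which favours equal signs, so the agreement is no separate check.

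**Figure D5:**
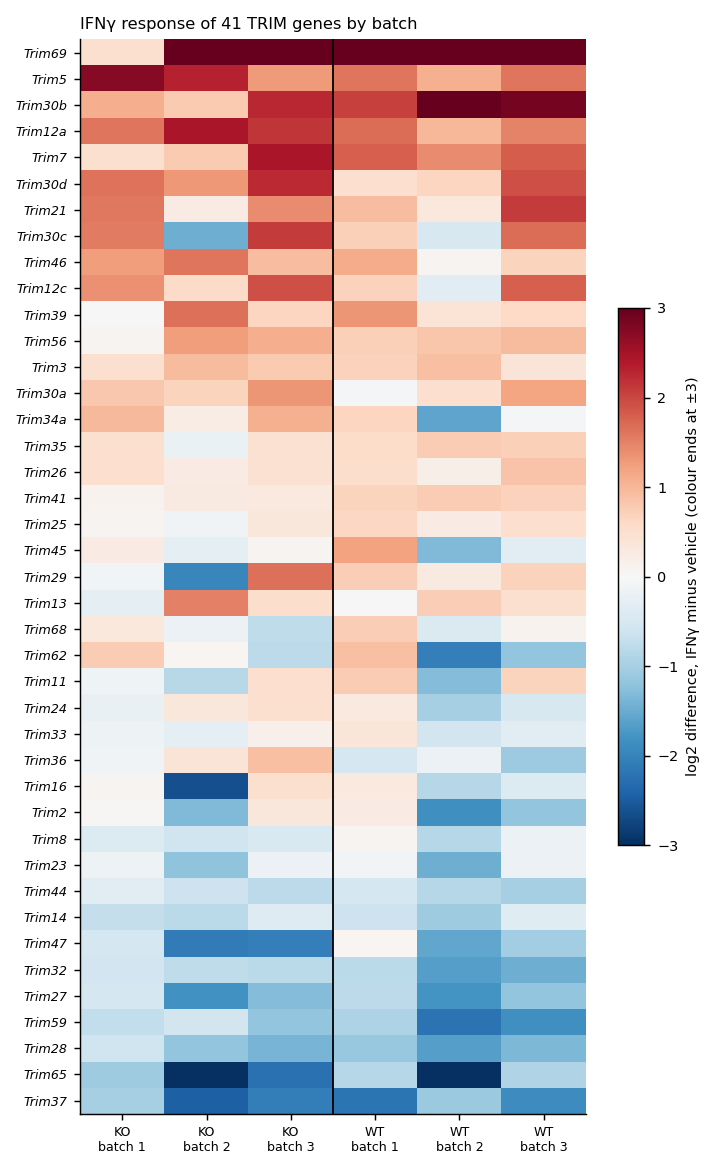
Log2 difference of IFNγ minus vehicle (colour, ending at ±3) within batches 1, 2 and 3 of each line (columns, KO left of WT) for the 41 well-read TRIM genes (rows). Batch 1 is the mean of 3 libraries a group and batches 2 and 3 are 1 library a group. Trim30c is negative in batch 2 of KO cells (−1.46) and Trim12c in batch 2 of WT cells (−0.31), against their signs in the other batches.

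None of the 5 tests between groups was passed by 6 of the 41 members: Trim2, Trim11, Trim16, Trim23, Trim33 and Trim45. Trim33, the SMAD4 regulator of the PHD and bromodomain class, had log2 changes of −0.12 ± 0.13 in KO and 0.052 ± 0.13 in WT cells with IFNγ, with approximate 95% intervals of −0.39 to 0.16 and −0.23 to 0.33. For Trim16 the intervals were −0.88 to 0.45 in KO and −0.76 to 0.56 in WT cells, which leave room for changes of either sign.

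TRIM family genes under other symbols were looked at beside the members. Pml, the organizer of PML nuclear bodies, rose in KO cells (log2 1.23 ± 0.24, adjusted p = 0.00033) and changed by 0.24 ± 0.23 in WT cells (adjusted p = 0.38), and the difference had an adjusted p of 0.075. Mid1, a microtubule-associated ligase, rose by 1.91 ± 0.38 in KO (adjusted p = 0.00049) and 1.17 ± 0.37 in WT cells (adjusted p = 0.010). Mid2 was not called in any comparison and Mefv did not pass the filter.

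Among the enzymes that work with TRIM ligases, the E2 gene Ube2e2 differed between the lines. It averaged 7.81 ± 0.95 CPM in KO IFNγ and 0.016 ± 0.035 CPM in WT IFNγ libraries, and 8.14 ± 0.86 CPM in KO vehicle and 0.063 ± 0.098 CPM in WT vehicle libraries (mean ± SD, n = 5 each). Ube2e2 passed the filter through its KO libraries, which fixed the direction of any call. Of 17 tested E1 and E2 genes, 1 rose and 4 fell with IFNγ in KO cells, and 4 rose and 7 fell in WT cells. Of all genes tested 43.2% were called in KO and 58.9% in WT cells, so the WT share of this list was near the background and the KO share below it. Uba7, the E1 enzyme of the ubiquitin-like ISG15, rose in both lines (0.71 ± 0.22 in KO, 0.84 ± 0.22 in WT), and Ube2n, the E2 enzyme of K63-linked chains, fell in both (−0.43 ± 0.12 in KO, −0.63 ± 0.12 in WT). Of 14 deubiquitinase genes, 5 rose and 2 fell in KO (background 43.2%) and 6 rose and 5 fell in WT cells (background 58.9%). Tnfaip3, which encodes the NF-κB inhibitor A20, rose by 2.48 ± 0.34 in KO and 3.10 ± 0.34 in WT cells.

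Of the silencing partners of TRIM28, 9 of 16 fell and 1 rose in KO cells (background 21.8% lower), and 10 of 16 fell and 1 rose in WT cells (background 29.9% lower). The medians were −0.44 in KO and −0.51 in WT cells (log2), beside −0.017 and 0.012 over all genes. Cbx3 and Cbx5, which encode heterochromatin proteins, fell by 0.93 ± 0.13 and 0.81 ± 0.19 in KO and by 1.36 ± 0.13 and 1.81 ± 0.19 in WT cells. The methyltransferase gene Setdb1 fell by 0.34 ± 0.10 in KO and 0.43 ± 0.10 in WT cells, and Morc3 rose by 0.60 ± 0.15 in KO and 1.10 ± 0.15 in WT cells. Of the autophagy genes whose products TRIM proteins bind, 11 of 15 rose in KO (background 21.4% higher) and 11 of 15 in WT cells (background 29.0% higher), and none fell. Sqstm1, the p62 receptor, rose by 1.15 ± 0.11 in KO and 2.06 ± 0.11 in WT cells, and the difference of −0.90 ± 0.15 was called (adjusted p = 0.0014). Its means were 1692 CPM in KO IFNγ and 1750 CPM in WT IFNγ libraries. Under vehicle they were 770 CPM in KO and 424 CPM in WT libraries, and it was called higher in KO cells there. Lgals3 rose by 1.66 ± 0.14 in KO and 2.80 ± 0.15 in WT cells, with a difference of −1.14 ± 0.20 (adjusted p = 0.0020).

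Of 22 tested genes of RNA and DNA sensing, 9 rose and 5 fell with IFNγ in KO cells (background 43.2%), and 8 rose and 6 fell in WT cells (background 58.9%), where the share was near the background. Tbk1, the kinase downstream of both sensors, rose by 0.76 ± 0.11 in KO and 0.75 ± 0.11 in WT cells. Ddx58, which encodes RIG-I, the target of TRIM25, fell by 1.03 ± 0.18 in KO and 1.19 ± 0.18 in WT cells, and was higher in KO than in WT cells under IFNγ (1.21 ± 0.18) and vehicle (1.04 ± 0.18). Of 14 genes of PML bodies, 5 rose and 3 fell in KO (background 43.2%) and 4 rose and 5 fell in WT cells (background 58.9%), Sp140 (2.55 ± 0.29 in KO, 2.13 ± 0.29 in WT) and Sp110 (1.90 ± 0.23 in KO, 1.61 ± 0.23 in WT) among the rises.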

How the data were processed

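Poly(A)-enriched RNA of 20 BV-2 libraries was sequenced, and the authors deposited raw read counts per gene in 1 table. Per the submitters' processing notes, FastQC, Trim Galore, STAR and DESeq2 were used, with the build GRCm39. Which tool counted the reads, with which strand setting and annotation, is not stated in the labels or the table, and reads of paralogs and of overlapping genes on opposite strands cannot be told apart. Every count column matched a library (0 columns without one). Symbols came from GENCODE vM21 (GRCm38) for 52000 of 56941 IDs (91.3%), as did exon lengths, shared words of 50 bases and overlaps. Promoter windows came from RefSeq on GRCm38.p6, and no coordinate of the counts' build was used.

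Counts were scaled by TMM and filtered with filterByExpr (10 reads minimum) in edgeR 4.0.16 (R 4.3.3), which left 13755 genes. Quasi-likelihood models took group and batch as terms over all 20 libraries (14 residual degrees of freedom). Benjamini-Hochberg adjustment ran over all genes of a comparison, and calls had an adjusted p under 0.05. Log2 changes are given ± SE. Values by batch are differences of log2 CPM (prior count 2), and 95% intervals use those 14 degrees of freedom. Common biological variation was 24.2%. Rgs10 was also compared by an exact permutation test of 5 against 5 libraries, whose smallest two-sided p is 0.0079 (scipy). The script was tested on simulated data.

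All well-read members could be named. Values of every library are given for members called in the difference of responses, for the 4 largest changes each way in a comparison, and for the TRIM5 and TRIM22 relatives. Other lists were described by the called genes with the smallest p. Setdb1, Mid2 and Mefv stand outside that rule or among its unmeasured genes and were named after their values were seen. Members, lists and rules were chosen with earlier results of these data known. The labels call replicates biological without naming separate cultures. P-values thus measure the spread of these libraries, which may be technical. Same-numbered libraries were checked for pairing: within batch 1 their deviations from group means correlated at −0.042 to 0.040, and numbers were used as pairs only through the batch term. Alternatives were RLE size factors, plain totals, no filter beyond 1 read, DESeq2 1.42.0, limma-voom (limma 3.58.1), no batch term, a replicate block, subsets of batches, and leaving out each library, 31 in all.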

Additional observations from a re-analysis of the deposited data

Results flagged for a closer look

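In 100 groups of 5 libraries, formed by 25 members in 4 groups each, 14 had a lowest or highest library set far from the other 4 (gap over range above Dixon's value for groups of 5). Chance flags about 1 in 20 groups of independent libraries, but here 3 of each 5 share batch 1 and the members share libraries. Of these, 7 were KO IFNγ replicate 4 and 4 were WT IFNγ replicate 4, the batch 2 libraries with high Malat1. KO IFNγ replicate 4 was the low library for Trim12c (18.1 CPM), Trim30a (111 CPM), Trim30b (0.397 CPM), Trim30c (0 CPM), Trim30d (21.2 CPM), Trim34a (2.95 CPM) and Trim8 (68.5 CPM). WT IFNγ replicate 4 was the low library for Trim12c (13.6 CPM), Trim30c (1.01 CPM), Trim34a (1.09 CPM) and Trim8 (80.2 CPM). KO IFNγ replicate 5 was low for Trim62 (0.291 CPM), and WT vehicle replicate 1 was low for Trim68 (0 CPM). WT IFNγ replicate 5 was the high library for Trim30b (9.16 CPM). The part of library quality in these values was not tested.

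The IFNγ response differed between the lines for Trim30d (KO minus WT 0.85 on the log2 scale) and Trim41 (−0.53). Neither call held with the replicate number as a block.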

How the results depend on the processing

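Over the 31 alternatives no member called in the report changed direction, and 10 of 25 calls in KO and 13 of 26 in WT cells with IFNγ, 3 of 12 under vehicle, 4 of 15 under IFNγ and 0 of 2 for the difference of responses held in all. Depth limits Trim5, Trim7, Trim24, Trim29, Trim30b, Trim30c, Trim62, Trim68 and Trim69, each under 10 reads in at least 1 library. Calls in WT cells with IFNγ numbered 17 in batches 2 and 3 alone, beside 5101 of 14288 genes tested. KO against WT under vehicle gave 7 calls with no batch term, 28 in batch 1 alone, 3 in batches 2 and 3 alone and 20 without batch 2. Over all genes tested these settings called 2318 of 13755, 8072 of 13833, 847 of 14288 and 4654 of 13727, in that order. KO against WT under IFNγ gave 28 in batch 1 alone and 5 in batches 2 and 3 alone. There the calls over all genes were 9580 of 13833 and 1920 of 14288. The difference of responses gave 4 calls by DESeq2, 25 in batch 1 alone, 8 without batch 2 and 5 without batch 3. All genes gave 1480 of 13755, 7096 of 13833, 1906 of 13727 and 1631 of 13805 in those settings. In edgeR the difference of responses gave 0 calls with no batch term, with the replicate block and in batches 2 and 3 alone, where 4, 8 and 1 members had an unadjusted p under 0.05 (10 in the fit as reported). Over all genes these last settings called 138 of 13755, 530 of 13755 and 121 of 14288. The cause was not tested. Leaving out 1 library gave 23 to 25 calls in KO and 24 to 28 in WT cells with IFNγ, 10 to 16 under vehicle, 13 to 17 under IFNγ, 0 to 3 for the difference and 19 to 24 between batches. Over all genes (13951 to 14077 tested) the calls were 4911 to 6571, 7593 to 8624, 3212 to 4452, 4613 to 5689, 542 to 1448 and 5901 to 6925. The replicate block (pairing by number) gave 25 calls in each line with IFNγ, 11 under vehicle and 16 under IFNγ. Of 13755 genes it called 5362 in KO and 7660 in WT cells with IFNγ, 3204 under vehicle and 4786 under IFNγ. It added a call for Trim69 under IFNγ (−1.49, adjusted p = 0.041) and changed no call other than that and those given beside the results. Of changes not called in the report, 4 turned sign in batch 1 alone and passed the test there: Trim16 in WT cells with IFNγ (0.30), Trim59 under vehicle (−0.23), and Trim3 (−0.19) and Trim39 (−0.78) under IFNγ, Trim39 also without batch 2 (−0.50).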
